A study of Mus musculus with 4 samples.

Results

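The genes described are 42 mitosis, kinetochore and spindle genes, chosen by name for the roles of their proteins in cell division. The choice was made with earlier results of these data known. They comprise cyclins and Cdk1, mitotic kinases, spindle checkpoint and anaphase factors, kinetochore and chromosomal passenger proteins, kinesins, spindle and cytokinesis proteins, and the chromosome proteins Top2a and Mki67. A gene was read from the probe set that carries its symbol and no other, and from the one with the highest mean where there were several. This gave values for 41 of the 42 genes, of 19938 genes on the array. Ccnb1 had no probe set with 1 symbol and has no value here. All 41 lay above the floor of 4.25 (log2) on all 4 arrays, where the floor is the 95th percentile of olfactory and vomeronasal receptor probe sets, which are not expected to be expressed in these cells. Of all genes, 13545 exceeded the floor on at least 1 array.

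RNA was measured on Affymetrix arrays in RAW 264.7 cells, a macrophage-like mouse line from which RANKL produces osteoclast-like cells. The 4 groups were stimulated miR-155 cells (transfected with a vector expressing miR-155, 72 h of RANKL and M-CSF at 20 ng/ml), unstimulated miR-155 cells (the same vector, no cytokine), stimulated control cells (a control vector, the same stimulation) and unstimulated control cells (the control vector, no cytokine). It is not said whether 20 ng/ml holds for each cytokine, and the controls are named wild-type in the series text but vector-transfected in the sample descriptions. The labels do not say whether the transfected cells were a pool or 1 clone. Each group had 1 array, so no difference has a replicate check, no test was possible and no p-values are given. The 95th percentile of the absolute difference of the receptor probe sets, 0.37 to 0.48 (log2) in the 4 comparisons between vectors or between stimulated and unstimulated cells, served as a noise reference that covers array noise and not the spread between cultures.

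Mitosis begins when Cdk1 bound to cyclins drives chromosome condensation and spindle assembly. Kinetochores then attach chromosomes to microtubules, the spindle checkpoint holds back the anaphase-promoting complex until attachment is complete, and separase and the cytokinesis proteins finish division. Transcripts of these genes are high in G2 and mitosis and low in cells that have left the cycle, as osteoclast precursors do before they fuse into multinucleated osteoclasts. miR-155 is a microRNA known from activated macrophages and lymphocytes, and pairs with its targets mainly through its seed. The mature strand, from RefSeq (GRCm38.p6, chr16:84714143-84714165, plus strand), is shown because it is the agent the vector carries, with the seed, bases 2 to 8, in capitals.
mmu-miR-155-5p: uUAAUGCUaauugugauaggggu

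After 72 h of RANKL and M-CSF, the mitosis genes in miR-155 cells were close to their unstimulated levels, whereas in control cells they were far below them. In miR-155 cells the median log2 difference over the 41 genes, stimulated minus unstimulated, was −0.12, with a range of −0.62 (Plk1) to 0.60 (Cenpe). At least 2-fold lower were 0 of 41 genes, against 0.185% of all genes, and at least 2-fold higher were 0 of 41, against 1.15%. The noise reference of 0.41 held 35 of the 41 differences, or 85.4%, beside 83.7% of all genes. Stimulated miR-155 cells also lay near unstimulated control cells, at a median log2 difference of −0.04 and with 38 of 41 genes (92.7%) inside the noise reference of that pair, where all genes had a median of −0.04 and 83.6% inside. In RNA of a whole culture, fewer cycling cells and less RNA per cell cannot be told apart.

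In control cells the same stimulation gave a median log2 difference of −2.21, with a range of −3.07 (Kif11) to −0.79 (Bub3) and an SD over genes of 0.54, beside a median of −0.02 over all 13545 genes. Past 2-fold in the lower direction were 40 of 41, against 6.93% of all genes, and the exception was Bub3. None of the 41 was higher. Ranked from the most negative difference, 17 of the 41 lay in the lowest 1% of all genes and 40 in the lowest 5%. The difference between the 2 responses, miR-155 minus control, had a median of 2.09 (log2) and was at least 2-fold higher for 39 of 41 genes, against 6.64% of all genes. Bub3 at 0.65 and Ube2c at 0.87 (log2) were the exceptions.

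**Figure D1:**
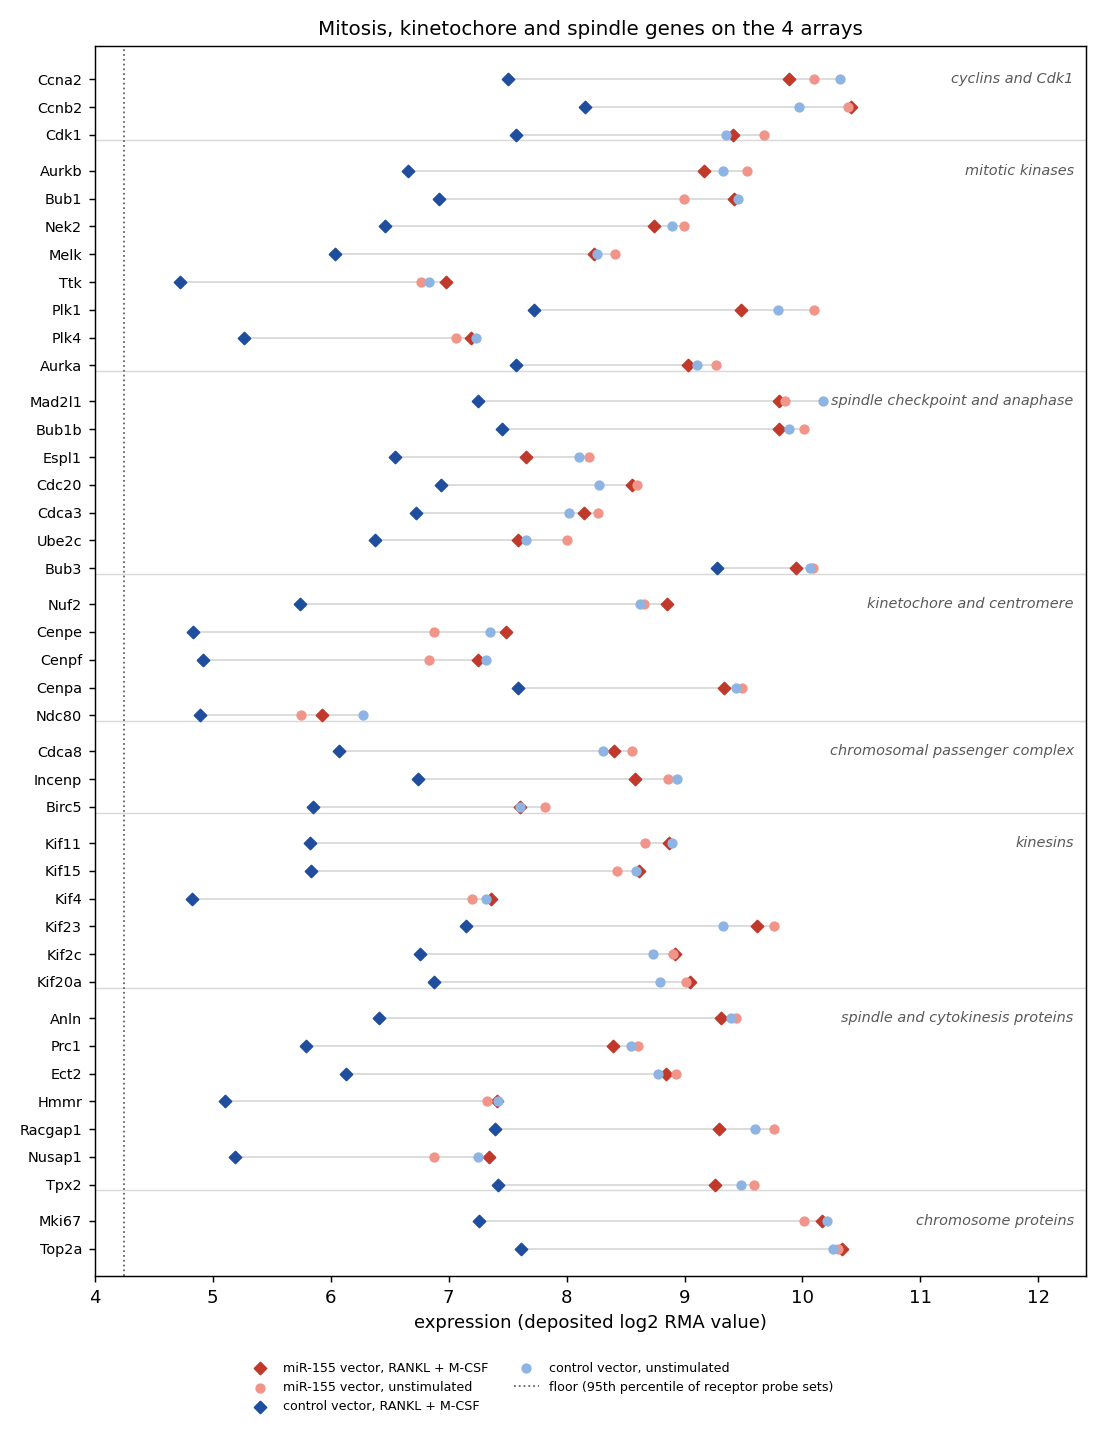
Log2 level of each of the 41 genes (one row a gene, grouped by role) on the 4 arrays, 1 symbol per array, with the floor as a dotted line. The stimulated control array is the lowest of the 4 in all 41 rows, while the other 3 arrays lie within 0.62 (log2) of each other in every row.

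The stimulated control array was the lowest of the 4 for 41 of 41 genes, as it was for 36.2% of all genes. For each of the 41, its gap to the nearest array was larger than the whole range of the other 3 arrays, which was 0.08 for Top2a, 0.25 at the median and 0.62 for Plk1 (log2). That array also stood apart over all genes: its Pearson correlations with the others were 0.908 to 0.937, and those among the other 3 were 0.982 to 0.989. Markers of the osteoclast state moved with stimulation in both vectors. Of 9 osteoclast markers, 8 were at least 2-fold higher in stimulated than unstimulated miR-155 cells, against 1.15% of all genes. All 9 were so in stimulated than unstimulated control cells, against 5.74% of all genes. Their median log2 response was smaller in miR-155 cells, 3.43, than in control cells, 5.85. After stimulation, 8 of the 9 were at least 2-fold lower in miR-155 than in control cells, against 5.56% of all genes. The difference of responses was at least 2-fold lower for 7 of the 9, against 4.64% of all genes. Ctsk and Acp5, given next, are not among these 7. Ctsk, the collagen-cleaving protease of osteoclasts, had a log2 level of 11.18 in stimulated and 4.26 in unstimulated miR-155 cells, against 13.40 in stimulated and 6.72 in unstimulated control cells. Acp5, the tartrate-resistant acid phosphatase, had 12.10 in stimulated and 6.17 in unstimulated miR-155 cells, against 12.97 in stimulated and 6.54 in unstimulated control cells. Of 7 macrophage markers, 0 were at least 2-fold lower after stimulation in miR-155 cells. The share of all genes there was 0.185%, too low for this 0 to set the markers apart. In control cells 4 of the 7 were lower by that much, against 6.93% of all genes. Adgre1, the F4/80 antigen, had 7.92 in stimulated and 8.35 in unstimulated miR-155 cells, against 4.88 in stimulated and 9.26 in unstimulated control cells. Csf1r, the M-CSF receptor, had 11.73 in stimulated and 12.00 in unstimulated miR-155 cells, against 11.46 in stimulated and 11.82 in unstimulated control cells. Of 15 markers of T and B cells, fibroblasts and osteoblasts, and epithelium, 5 were below the floor on all arrays, the highest level of any was 6.21, and 0 differed by 2-fold between any of the groups compared. The part of these markers in the differences of the mitosis genes was not tested. Levels of the Mir155 probe set, 3.73 in stimulated and 3.58 in unstimulated miR-155 cells, against 3.61 in stimulated and 3.72 in unstimulated control cells, were all under the floor, so they give no check of the vectors. With 1 array a group, the culture, the array and the group cannot be told apart.

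**Figure D2:**
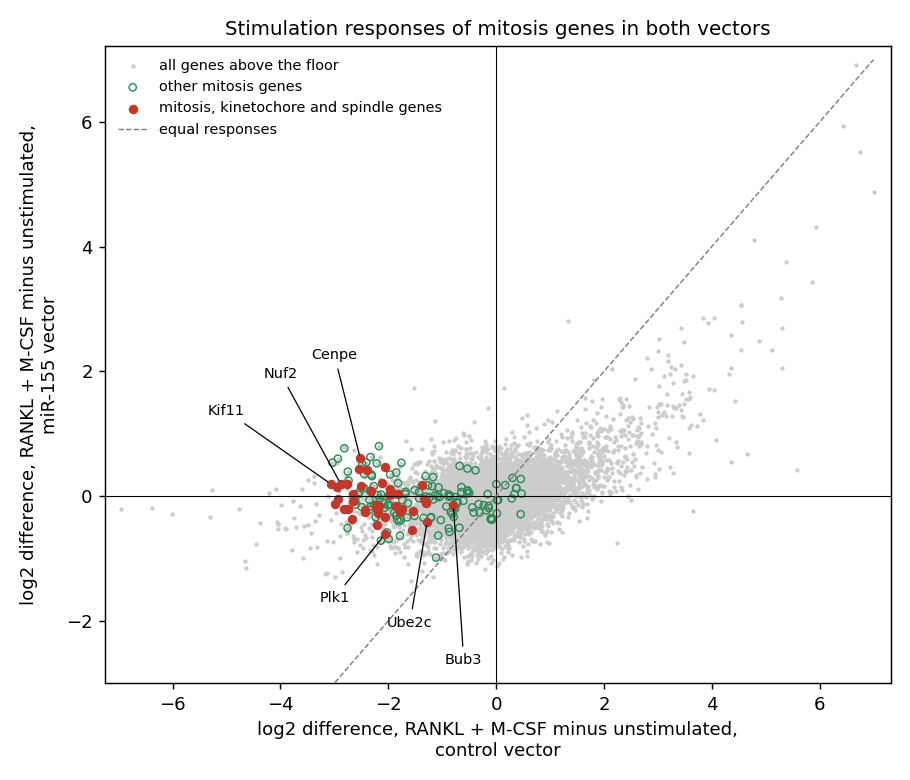
Log2 difference of stimulated minus unstimulated cells, in miR-155 cells (y axis) and in control cells (x axis), for all 13545 genes above the floor (grey), other mitosis genes (green rings) and the 41 genes described (red), with the line of equal responses dashed. The red points stay between −0.62 and 0.60 along the y axis and run from −3.07 to −0.79 along the x axis.

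Promoter sequences are shown for 6 genes, because mitosis genes share promoter elements: the CHR (cell cycle genes homology region), searched here as TTTGAA or as TTCGAA, which DREAM and MuvB complexes are known to bind, and the CCAAT box, which NF-Y is known to bind. Both strands were searched, and capitals mark CHR matches (TTCAAA is TTTGAA on the other strand) and CCAAT boxes (ATTGG is the other strand of the box). The 6 are the 2 genes with the highest mean level among those with an upstream CHR match, Bub3 and Ccnb2, the 2 most negative responses in control cells among those, Kif11 and Mki67, and the 2 smallest responses not yet taken, Ube2c and Cdca3. Each is the 250 bases before the annotated start, 5′ to 3′ on the gene's strand, from RefSeq (GRCm38.p6).
Bub3, chr7:131560120-131560369, plus strand: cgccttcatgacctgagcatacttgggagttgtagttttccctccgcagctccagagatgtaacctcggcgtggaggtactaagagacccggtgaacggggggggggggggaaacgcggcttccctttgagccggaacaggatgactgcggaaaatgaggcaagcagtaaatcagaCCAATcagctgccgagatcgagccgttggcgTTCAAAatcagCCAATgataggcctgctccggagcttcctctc
Ccnb2, chr9:70421555-70421804, minus strand: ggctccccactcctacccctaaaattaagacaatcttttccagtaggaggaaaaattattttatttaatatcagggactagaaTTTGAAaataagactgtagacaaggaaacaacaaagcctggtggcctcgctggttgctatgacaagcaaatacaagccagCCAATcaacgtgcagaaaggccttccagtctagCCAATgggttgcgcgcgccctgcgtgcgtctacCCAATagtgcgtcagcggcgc
Kif11, chr19:37376132-37376381, plus strand: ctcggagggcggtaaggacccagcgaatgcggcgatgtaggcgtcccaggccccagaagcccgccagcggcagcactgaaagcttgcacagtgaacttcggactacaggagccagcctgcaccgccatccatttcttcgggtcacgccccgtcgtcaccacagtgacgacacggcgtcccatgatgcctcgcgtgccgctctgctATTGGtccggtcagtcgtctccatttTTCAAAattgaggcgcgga
Mki67, chr7:135716380-135716629, minus strand: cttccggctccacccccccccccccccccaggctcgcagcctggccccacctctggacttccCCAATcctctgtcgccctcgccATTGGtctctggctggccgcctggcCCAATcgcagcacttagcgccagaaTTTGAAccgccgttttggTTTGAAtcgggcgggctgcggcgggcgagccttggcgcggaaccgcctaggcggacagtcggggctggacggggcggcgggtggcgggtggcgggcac
Ube2c, chr2:164769679-164769928, plus strand: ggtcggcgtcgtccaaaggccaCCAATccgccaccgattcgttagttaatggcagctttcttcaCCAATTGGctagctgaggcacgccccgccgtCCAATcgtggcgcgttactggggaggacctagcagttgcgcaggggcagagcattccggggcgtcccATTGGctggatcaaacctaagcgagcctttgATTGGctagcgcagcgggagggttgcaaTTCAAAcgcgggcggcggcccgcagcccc
Cdca3, chr6:124829926-124830175, plus strand: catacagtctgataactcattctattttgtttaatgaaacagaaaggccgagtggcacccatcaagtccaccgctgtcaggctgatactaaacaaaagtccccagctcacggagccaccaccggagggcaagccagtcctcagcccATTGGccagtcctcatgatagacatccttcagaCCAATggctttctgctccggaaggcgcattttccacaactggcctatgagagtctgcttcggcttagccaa

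Promoters were matched for 36 of the 41 genes (not for Kif20a, Tpx2, Ccna2, Incenp and Aurkb). For 3 of the 36 the table lists several starts, and the first was used. A CHR match within 50 bases of the start on either side occurred in 26 of 36 (72.2%), against 5.29% of all 27025 promoters in the table and 3.46% of the 10736 promoters of genes above the floor. Over the whole 300 bases (250 before the start and 50 from it) the shares were 77.8%, against 19.4% of all promoters and 13.6% of those of genes above the floor. In the 250 bases before the start alone they were 36.1%, against 17.4% and 12.1%. CCAAT boxes occurred in the 250 upstream bases of 26 of 36 (72.2%), against 34.5% of all promoters and 35.6% of those of genes above the floor, and more than 1 in 17 (47.2%), against 10.5% and 13.1%. Both a CHR match near the start and a CCAAT box within the 300 bases were found in 23 of 36 (63.9%), against 2.28% and 1.75%. In these 23 genes the nearest CCAAT box before the CHR match was separated from it by a median of 28 bases, with a range of 4 (Kif23) to 148 (Bub1b), and by 15 to 45 bases in 15 of the 23. E2F matches (TTCGCGC or the variant TTGGCGC or the variant TTCCCGC, on both strands) were upstream in 5 of 36 (13.9%), against 6.79% of all promoters and 11.6% of those of genes above the floor, so their share is near that of expressed genes. Of the 38 CHR matches in the 300 bases, 1 (past the start) overlapped a CCAAT box and 0 an E2F match. The matched letters are a description of these windows and not evidence of binding.

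Near-start CHR matches of 7 genes are shown as 30-base windows, 1 from each role but the chromosomal passenger complex, to place them against the values that follow, with the CHR in capitals and positions counted from the start base as 1 and the base before it as −1. These windows were chosen after the values were seen. In each role the gene shown has the most negative response in control cells among those with such a match.
Ccnb2, chr9:70421533-70421562, minus strand: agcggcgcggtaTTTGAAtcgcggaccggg
Bub1, chr2:127831828-127831857, minus strand: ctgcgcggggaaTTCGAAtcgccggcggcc
Bub1b, chr2:118598231-118598260, plus strand: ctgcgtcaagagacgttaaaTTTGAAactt
Cenpf, chr1:189688067-189688096, minus strand: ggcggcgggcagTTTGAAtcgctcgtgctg
Kif11, chr19:37376351-37376380, plus strand: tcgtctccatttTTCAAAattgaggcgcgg
Top2a, chr11:99024195-99024224, minus strand: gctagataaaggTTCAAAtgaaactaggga
Anln, chr9:22389168-22389197, minus strand: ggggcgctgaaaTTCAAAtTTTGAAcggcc

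The first base of the match lies at 5 in Ccnb2, 15 in Bub1, 41 in Bub1b, 3 in Cenpf, −19 in Kif11, −23 in Top2a and 22 in Anln, which has a further match next to it. The log2 responses of these genes in control cells ran from −3.07 (Kif11) to −1.81 (Ccnb2), a range that follows from that choice. Among all matched genes, the 26 with a CHR match near the start had a median response in control cells of −2.19 and a range of −3.07 to −0.79. The 10 without one had a median of −2.33 and a range of −2.95 to −1.75, so the ranges overlap. These 10 are Plk4, Cenpe, Kif2c, Mki67, Birc5, Nusap1, Nuf2, Melk, Nek2 and Mad2l1. Mki67, shown above, has both of its CHR matches farther upstream, and Cdca3 has its match after the start.

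**Figure D3:**
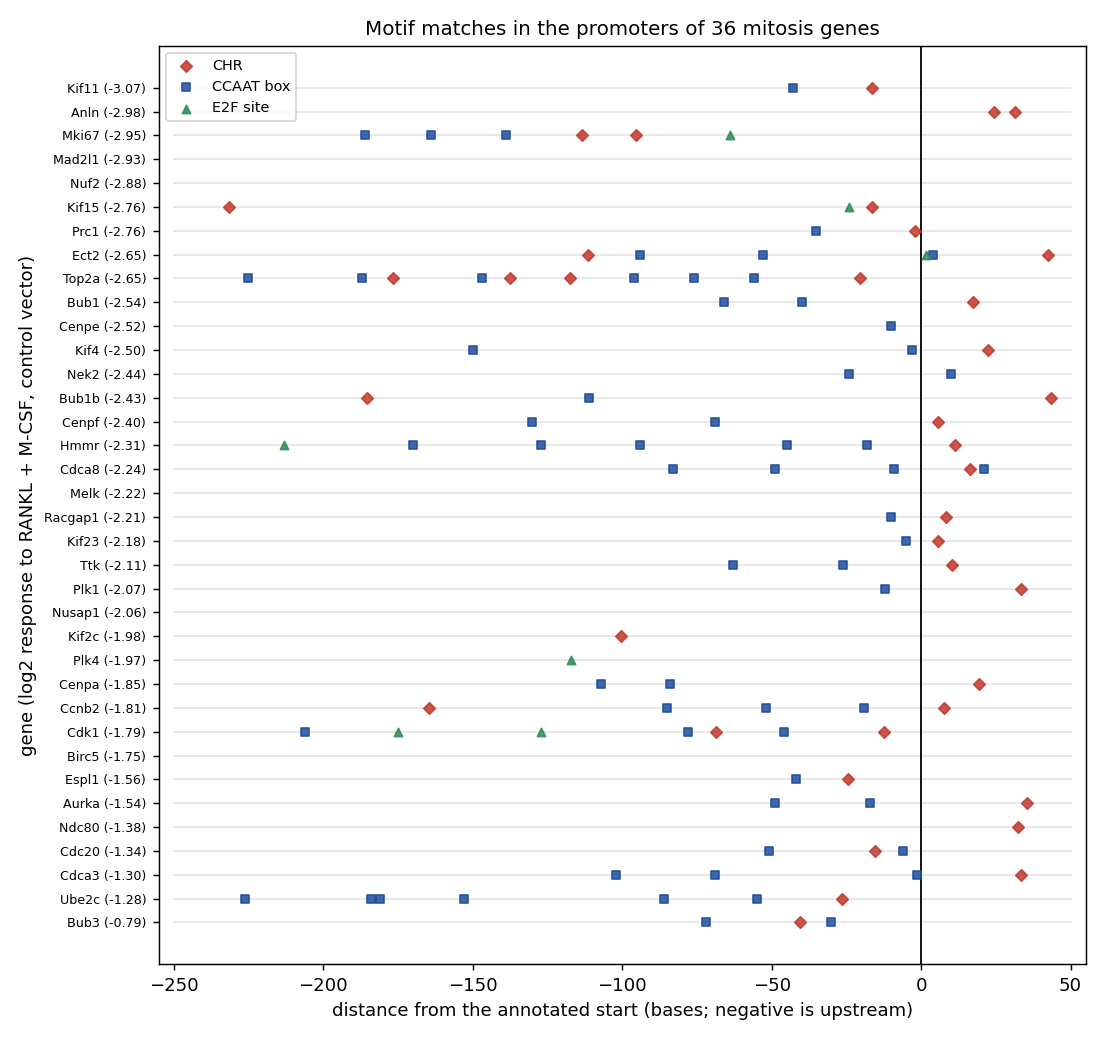
Positions of CHR (diamonds), CCAAT box (squares) and E2F (triangles) matches relative to the annotated start (x axis, bases) in the promoters of the 36 matched genes (one row a gene, ordered by the log2 response of control cells given beside its name). CHR matches gather within 50 bases of the start, in 26 of 36 rows, and CCAAT boxes lie mostly upstream of them.

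Among the cyclins and their kinase, Ccna2, which encodes cyclin A2 of S and G2 phase, differed most. It had a log2 level of 9.89 in stimulated and 10.10 in unstimulated miR-155 cells, against 7.50 in stimulated and 10.32 in unstimulated control cells. Stimulated cells were 1.16-fold lower than unstimulated ones with the miR-155 vector and 7.05-fold lower with the control vector. Ccnb2, cyclin B2, had 10.41 in stimulated and 10.38 in unstimulated miR-155 cells, against 8.16 in stimulated and 9.97 in unstimulated control cells. Cdk1, the kinase that drives entry into mitosis, had 9.41 in stimulated and 9.68 in unstimulated miR-155 cells, against 7.57 in stimulated and 9.36 in unstimulated control cells. Only the stimulated control array stands low for these genes, by 3.52-fold for Ccnb2 and 3.45-fold for Cdk1 against unstimulated control cells, less than for cyclin A2.

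The 8 mitotic kinases had a median log2 response (stimulated minus unstimulated) of −0.21 in miR-155 cells and −2.17 in control cells. Aurkb, the kinase of the chromosomal passenger complex, had a level of 9.16 in stimulated and 9.53 in unstimulated miR-155 cells, against 6.65 in stimulated and 9.33 in unstimulated control cells. Its relative Aurka, which acts at centrosomes and spindle poles, had 9.03 in stimulated and 9.27 in unstimulated miR-155 cells, against 7.57 in stimulated and 9.10 in unstimulated control cells. Of the 8, Aurkb had the most negative control response, −2.67, and Aurka the least, −1.54. Bub1, a checkpoint kinase at kinetochores, had 9.42 in stimulated and 8.99 in unstimulated miR-155 cells, against 6.92 in stimulated and 9.45 in unstimulated control cells. Its responses were 0.43 in miR-155 cells and −2.54 in control cells, and the positive one comes with a low level on the unstimulated miR-155 array. Plk1, the polo kinase of centrosome maturation and mitotic exit, had 9.48 in stimulated and 10.10 in unstimulated miR-155 cells, against 7.73 in stimulated and 9.80 in unstimulated control cells. The Plk1 response in miR-155 cells, −0.62, was the most negative of the 41, beside −2.07 in control cells. Nek2, which acts in centrosome separation, responded by −0.26 in miR-155 cells and −2.44 in control cells. Melk responded by −0.17 and −2.22 in these pairs, Ttk, the checkpoint kinase Mps1, by 0.21 and −2.11, and Plk4, which drives centriole duplication, by 0.12 and −1.97. Every kinase was thus at least 2-fold lower in the control pair, against 6.93% of all genes. None was in the miR-155 pair, against 0.185% of all genes, too low a share to set the kinases apart there.

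The 7 spindle checkpoint and anaphase genes had a median response (log2) of −0.14 in miR-155 cells and of −1.34 in control cells, the smallest of the role groups there, with the widest range. Mad2l1, the Mad2 checkpoint protein, had 9.80 in stimulated and 9.85 in unstimulated miR-155 cells, against 7.25 in stimulated and 10.17 in unstimulated control cells. Bub1b, which encodes the checkpoint protein BubR1, had 9.80 in stimulated and 10.02 in unstimulated miR-155 cells, against 7.45 in stimulated and 9.88 in unstimulated control cells. Bub3, the adaptor that brings Bub1 and BubR1 to kinetochores, had 9.95 in stimulated and 10.09 in unstimulated miR-155 cells, against 9.27 in stimulated and 10.07 in unstimulated control cells. Bub3 thus kept 57.7% of its unstimulated level in stimulated control cells (1.73-fold lower), while Mad2l1 kept 13.1% and Bub1b 18.5%. The anaphase genes lay between them. Cdc20, the activator of the anaphase-promoting complex, had 8.56 in stimulated and 8.60 in unstimulated miR-155 cells, against 6.93 in stimulated and 8.27 in unstimulated control cells. Ube2c, the ubiquitin-conjugating enzyme of that complex, had 7.59 in stimulated and 8.01 in unstimulated miR-155 cells, against 6.37 in stimulated and 7.65 in unstimulated control cells. Stimulated control cells were 2.53-fold lower for Cdc20 and 2.43-fold lower for Ube2c than unstimulated control cells. Cdca3, a factor in mitotic entry, had 8.15 in stimulated and 8.27 in unstimulated miR-155 cells, against 6.73 in stimulated and 8.02 in unstimulated control cells. It was 2.45-fold lower in the control pair, which places it with Cdc20 and Ube2c. Espl1, the protease separase that cleaves cohesin, had 7.66 in stimulated and 8.19 in unstimulated miR-155 cells, against 6.55 in stimulated and 8.11 in unstimulated control cells. The Espl1 response of −0.54 in miR-155 cells passed the noise reference, beside −1.56 in control cells, and the stimulated arrays of both vectors were its lowest values.

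The 5 kinetochore and centromere genes had a median response of 0.20 in miR-155 cells and −2.40 in control cells. Nuf2 and Ndc80 encode partner subunits of the complex that binds microtubules, and their values differed. Nuf2 had 8.85 in stimulated and 8.65 in unstimulated miR-155 cells, against 5.74 in stimulated and 8.63 in unstimulated control cells. Ndc80 had 5.93 in stimulated and 5.75 in unstimulated miR-155 cells, against 4.89 in stimulated and 6.27 in unstimulated control cells. The control responses were −2.88 for Nuf2 and −1.38 for Ndc80. The stimulated control value of Ndc80 is close to the floor of 4.25, where a lower level cannot be followed. The same limit holds for Cenpe and Cenpf, whose stimulated control values are as close to it. Cenpe, a kinetochore motor, had 7.48 in stimulated and 6.88 in unstimulated miR-155 cells, against 4.83 in stimulated and 7.35 in unstimulated control cells. Cenpf, a large outer kinetochore protein, had 7.25 in stimulated and 6.84 in unstimulated miR-155 cells, against 4.91 in stimulated and 7.31 in unstimulated control cells. Their responses were positive in miR-155 cells, 0.60 for Cenpe and 0.41 for Cenpf, and negative in control cells, −2.52 for Cenpe and −2.40 for Cenpf. In Cenpe, Cenpf and Ndc80 the unstimulated miR-155 array was lower than the unstimulated control array by more than the noise reference of 0.37. Cenpa, the histone H3 variant that marks centromeres, had 9.33 in stimulated and 9.49 in unstimulated miR-155 cells, against 7.59 in stimulated and 9.44 in unstimulated control cells, and its response in control cells was −1.85.

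The other chromosomal passenger subunits were lower in stimulated control cells together with Aurkb. Incenp, the scaffold that binds Aurkb, responded by −0.28 in miR-155 cells and −2.19 in control cells. Cdca8, borealin, responded by −0.15 in miR-155 cells and −2.24 in control cells. Birc5, survivin, had a level of 7.60 in stimulated and 7.81 in unstimulated miR-155 cells, against 5.85 in stimulated and 7.60 in unstimulated control cells. For Birc5, stimulated miR-155 cells and unstimulated control cells had the same level, and stimulated control cells were 3.37-fold below unstimulated control cells.

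The 6 kinesins, microtubule motors, had responses between −0.15 and 0.20 in miR-155 cells and a median response of −2.34 in control cells. Kif11, which pushes spindle poles apart, had 8.86 in stimulated and 8.67 in unstimulated miR-155 cells, against 5.82 in stimulated and 8.89 in unstimulated control cells. It was 8.38-fold lower in stimulated than unstimulated control cells, with 11.9% of the level left, the most negative response of the 41. Kif15, known to share work with Kif11 at the spindle, had 8.61 in stimulated and 8.43 in unstimulated miR-155 cells, against 5.83 in stimulated and 8.59 in unstimulated control cells. Its stimulated control level was 6.78-fold below the unstimulated control level. Kif4, the chromokinesin of chromosome arms and the midzone, was 5.66-fold lower in the same pair, Kif23, a centralspindlin subunit, 4.53-fold, Kif2c, a microtubule depolymerase, 3.95-fold, and Kif20a, a cytokinesis motor, 3.80-fold. Within these 6, Kif11 and Kif15, motors of the bipolar spindle, had the largest differences.

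The 7 spindle and cytokinesis proteins had a median response of −0.13 in miR-155 cells and −2.31 in control cells. Anln, anillin of the contractile ring, had 9.31 in stimulated and 9.44 in unstimulated miR-155 cells, against 6.41 in stimulated and 9.39 in unstimulated control cells. Prc1, which bundles midzone microtubules, had 8.40 in stimulated and 8.61 in unstimulated miR-155 cells, against 5.79 in stimulated and 8.54 in unstimulated control cells. Ect2, the exchange factor that activates RhoA for cytokinesis, had 8.84 in stimulated and 8.93 in unstimulated miR-155 cells, against 6.13 in stimulated and 8.78 in unstimulated control cells. Stimulated control cells were 7.90-fold lower than unstimulated control cells for Anln, 6.75-fold for Prc1 and 6.27-fold for Ect2. Hmmr was 4.97-fold lower in that pair, Nusap1, which stabilises spindle microtubules, 4.17-fold, and Tpx2, the activator of Aurka, 4.16-fold. Racgap1, the partner of Kif23 in centralspindlin, was 4.62-fold lower, close to Kif23 at 4.53-fold. In miR-155 cells Nusap1 at 0.47 and Racgap1 at −0.46 passed the noise reference, in opposite directions.

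The chromosome proteins are Mki67, a coat protein of mitotic chromosomes used as a proliferation marker, and Top2a, the topoisomerase that disentangles chromosomes. Mki67 had 10.17 in stimulated and 10.02 in unstimulated miR-155 cells, against 7.26 in stimulated and 10.21 in unstimulated control cells. Top2a had 10.34 in stimulated and 10.30 in unstimulated miR-155 cells, against 7.61 in stimulated and 10.26 in unstimulated control cells. Stimulated control cells were 7.72-fold lower than unstimulated control cells for Mki67 and 6.26-fold lower for Top2a, and the other 3 arrays of Top2a span 0.08 (log2). A further Top2a probe set had 3.69 in stimulated and 3.48 in unstimulated miR-155 cells, against 2.81 in stimulated and 3.34 in unstimulated control cells. All of these values are under the floor, so that probe set was not used for Top2a.

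Before stimulation the vectors differed little in these genes. The median log2 difference of unstimulated miR-155 cells minus unstimulated control cells was 0.06, with a range of −0.53 (Ndc80) to 0.44 (Kif23). None of the 41 was at least 2-fold lower, against 0.546% of all genes, and 0 of 41 were at least 2-fold higher, against 0.0664%. The noise reference of 0.37 held 34 of the 41 (82.9%), close to the 85.2% of all genes. Lower by more than that were Ndc80 (−0.53), Cenpf (−0.48), Cenpe (−0.47), Bub1 (−0.46) and Nusap1 (−0.38), and higher were Kif23 (0.44) and Ccnb2 (0.41). All of the 5 lower genes had positive responses in miR-155 cells (0.60 for Cenpe, 0.47 for Nusap1, 0.43 for Bub1, 0.41 for Cenpf and 0.18 for Ndc80), and both comparisons use the unstimulated miR-155 array.

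After stimulation, miR-155 cells minus control cells had a median log2 difference of 2.26, with a range of 0.68 (Bub3) to 3.11 (Nuf2). Of the 41, 40 passed 2-fold in the higher direction, against 5.6% of all genes. The stimulated control array enters both this difference and the response of control cells, so the values are not separate measurements. Nuf2 was 8.62-fold, Kif11 8.23-fold and Mki67 7.49-fold higher in stimulated miR-155 than in stimulated control cells, and Ndc80 was 2.05-fold and Espl1 2.16-fold higher. Across the 41 genes the miR-155 response and the control response, which share no array, had a Pearson correlation of −0.27 and a Spearman correlation of −0.27, a description over genes that share these arrays.

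The other genes of mitosis, from a list of 133 of which 130 had a value, had smaller differences at the median. Their median log2 response was −0.04 in miR-155 cells, where 0 of 130 passed 2-fold in either direction, against 0.185% of all genes lower and 1.15% higher. It was −1.28 in control cells. There 79 of 130 passed 2-fold in the lower direction, against 6.93% of all genes, and 0 in the higher, against 5.74%. In miR-155 cells the lowest were Pmf1 (−0.99), Kif18b (−0.71), Gtse1 (−0.69) and Cdc25b (−0.64), and the highest Depdc1a (0.80), Kif20b (0.77), Esco2 (0.63) and Smc2 (0.60). In control cells the lowest were Knl1 (−3.04), the kinetochore scaffold, Smc2 (−2.94), a condensin core subunit, Kif20b (−2.82) and Pimreg (−2.76), and the highest Arpp19 (0.47), Cntrob (0.46), Zwint (0.46) and Anapc7 (0.38). These 4 highest values, that of the kinetochore protein Zwint among them, lie within the noise reference of 0.48. Between unstimulated miR-155 and unstimulated control cells, Cenpq (−0.86) and Esco2 (−0.78) were lowest and Arpp19 (0.63) and Cks2 (0.56) highest. After stimulation, miR-155 minus control was highest for Knl1 (3.10) and Smc2 (3.04) and lowest for Cntrob (−0.46) and Anapc13 (−0.42).

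Complexes differed in their responses in control cells, where 6.93% of all genes were at least 2-fold lower. The kinetochore list had 25 of 33 genes at least 2-fold lower (median −1.65), spindle and centrosome proteins 30 of 39 (−1.76), condensin and cohesin together 14 of 22 (−1.85) and mitotic entry kinases and phosphatases 8 of 19 (−0.88). The list of the anaphase-promoting complex and its regulators stood apart from these lists and, at its median, nearer to all genes. Past 2-fold in the lower direction were 2 of 17 (11.8%, median −0.14). The 2 were Fbxo5 (−2.60), which encodes the inhibitor Emi1, and the subunit Anapc5 (−1.05), both named after their values were seen. A split made after these values were seen put 7 of 8 condensin genes past 2-fold (median −2.28). Past it were also 2 of 9 genes of the cohesin core and part of its regulators (−0.68) and 1 of 14 core subunits of the anaphase-promoting complex (−0.10). The 9 leave out Cdca5 (−2.20), Esco2 (−2.33), Sgo1 (−1.26), Sgo2a (−1.93) and Pttg1 (−1.85) of the condensin and cohesin list. All of these, named after their values were seen, were past 2-fold in the lower direction. The contrast of condensin with cohesin thus depends on which genes were taken. The share of core subunits of the anaphase-promoting complex, 7.14%, is near that of all genes. A CHR match near the start, found in 26 of the 36 genes described (72.2%), was found in 32 of 106 other mitosis genes (30.2%). The share was 3.46% in genes above the floor and 5.29% in all promoters. None was found in 13 core subunits of the anaphase-promoting complex, which at so low a share cannot set them apart from other genes.

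**Figure D4:**
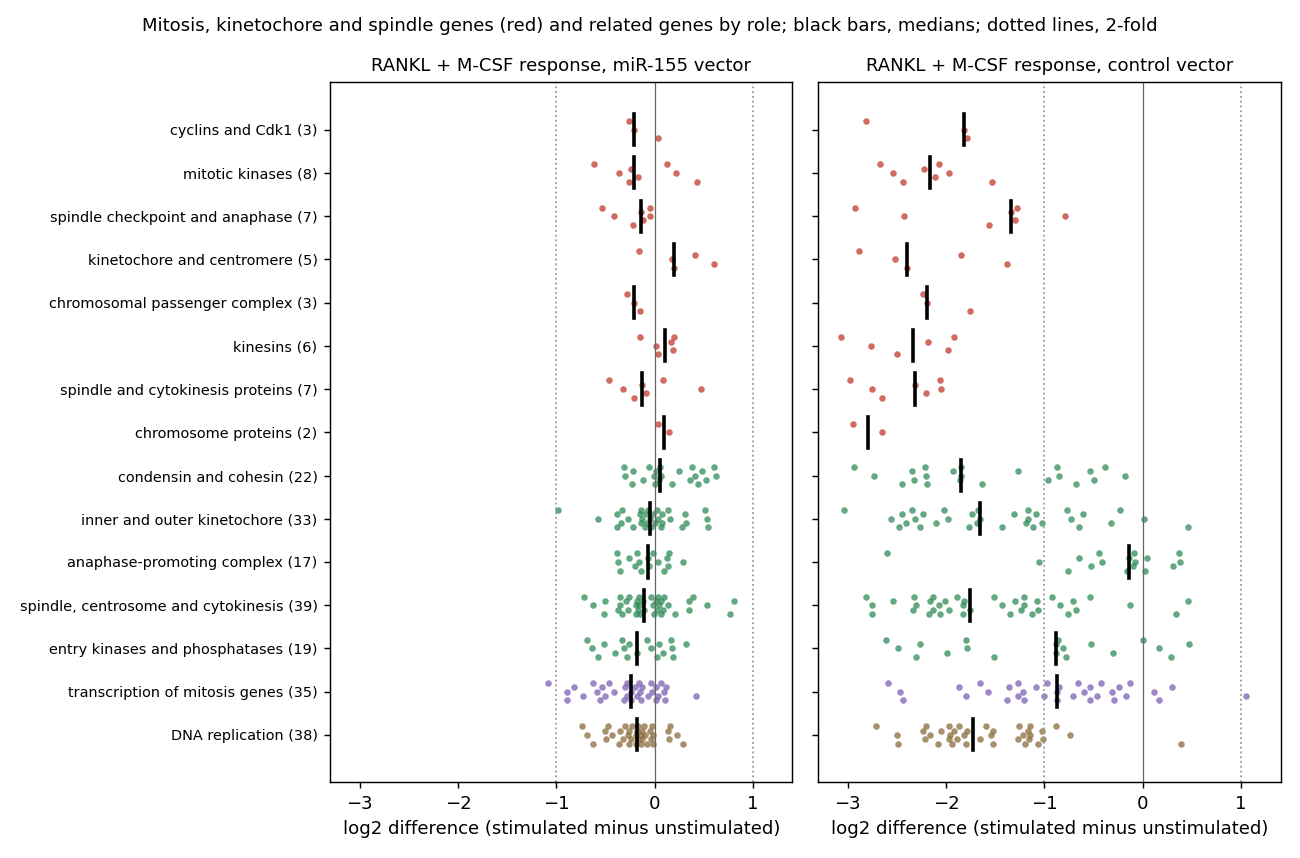
Log2 differences of single genes (points) and their medians (bars) by gene list, for stimulation in miR-155 and control cells. The role groups of the 41 genes have medians between −0.21 and 0.20 in miR-155 cells and between −2.80 and −1.34 in control cells. The median of the anaphase-promoting complex list lies near 0 in both.

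Regulators of these genes and of the cycle (35 of 37 with a value) had a median response of −0.24 in miR-155 cells and −0.87 in control cells. In miR-155 cells E2f4 (−1.09), E2f8 (−0.89), E2f7 (−0.89) and Ccnd3 (−0.82) were lowest, and Cdkn1b (0.42), Nfyb (0.11), Ccnd2 (0.10) and Nfya (0.10) highest. In control cells 15 of 35 were past 2-fold in the lower direction, against 6.93% of all genes, and 1 (2.86%) in the higher, against 5.74%. The lowest there were E2f8 (−2.59), a repressing E2F, Rbl1 (−2.47), which encodes p107 of the DREAM complex, Ccnd1 (−2.44), cyclin D1, and Ccne2 (−1.87), cyclin E2. Cdkn1b (1.05), the Cdk inhibitor p27, was the 1 past 2-fold in the higher direction, followed by Cdk6 (0.30), E2f3 (0.16) and Lin37 (0.12). Cdkn1b had a log2 level of 7.60 in stimulated and 7.18 in unstimulated miR-155 cells, against 8.40 in stimulated and 7.34 in unstimulated control cells. A relation of this 1 gene to the mitosis genes was not tested. Foxm1 and Mybl2, activators of G2 and mitosis genes named here after their values were seen, responded by −0.50 and −0.20 in miR-155 cells and by −1.79 and −1.38 in control cells. In the DNA replication list, 0 of 38 genes passed 2-fold in miR-155 cells (median −0.18), against 0.185% of all genes lower and 1.15% higher. In control cells 35 of 38 were lower by that much (median −1.72), against 6.93% of all genes. E2F matches were upstream of 41.9% of 31 matched replication genes, against 11.6% of genes above the floor. CHR matches were near the start of 6.45% of the replication genes, against 3.46%.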

How the data were processed

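Total RNA of 4 cultures (100 ng each) was labelled for Affymetrix Mouse arrays, per the labels' protocols. The authors deposited log2 values. Per the submitters' processing notes, RMA and Partek were used. Software versions: not given in the sources used here. Genome build: not given in the sources used here. RMA includes quantile normalization, which hides changes in total RNA per cell. Arrays carry no read depth, and their number limits the precision.

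The platform annotation gave 1 symbol to 21789 of 35557 probe sets, several to 1621 and none to 12147. The highest-mean probe set stood for a gene. The floor was the 95th percentile of the values of 1210 receptor probe sets, and each noise reference the 95th percentile of their absolute log2 differences. Differences were counted from 2-fold on, beside the share of all genes above the floor. The counting was run on simulated data with low noise and differences well past 2-fold. That run checks the calculation only and gives no support for the counts. Pandas 2.3.3 and numpy 2.4.6 were used in Python 3.11.15.

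Genes named beyond the 42 were up to 4 at each end of the other mitosis and regulator lists in each stimulation comparison and up to 2 at each end between vectors, with Ctsk, Acp5, Csf1r and Adgre1 as markers. Promoters were printed for the 2 highest-mean genes with an upstream CHR match, the 2 most negative responses with one and the 2 smallest responses. The genes and all lists were chosen with earlier results of these data known. Other probe set, scaling, floor and fold settings were tried. A promoter window of the chromosomal passenger complex is not reported here.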

Additional observations from a re-analysis of the deposited data

Results flagged for a closer look

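For 17 of the 41 genes the stimulation responses had opposite signs in the 2 vectors, above 0 in miR-155 cells and below 0 in control cells. All 41 were below 0 in control cells, so these are the genes above 0 in miR-155 cells, 41.5% of the 41, beside 45.1% of all genes. The difference of responses, miR-155 minus control, was 3.26 for Kif11, 3.12 for Cenpe, 3.10 for Mki67, 3.08 for Nuf2, 2.96 for Bub1, 2.95 for Kif15, 2.81 for Cenpf, 2.68 for Top2a and 2.66 for Kif4 (log2). It was 2.53 for Nusap1, 2.40 for Hmmr, 2.32 for Ttk, 2.09 for Plk4, 1.99 for Kif2c, 1.96 for Kif20a, 1.84 for Ccnb2 and 1.56 for Ndc80. With 1 array a group the difference was not tested. In miR-155 cells 3 of the 17 responses, those of Cenpe, Nusap1 and Bub1, passed the noise reference, which is 7.32% of the 41 genes, beside 7.13% of all genes in that direction.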

How the results depend on the processing

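Of 100 alternatives run for the medians and counts of the 41 genes, 98 stayed close to the reported result. Close means within 1.5 times a reported count or, for a median, a move smaller than the noise reference of its comparison. No median changed sign. The alternatives averaged the probe sets of a gene, centred or quantile normalized the arrays again, used no floor, a higher floor or values raised to the floor, and counted from 1.5-fold. All 41 genes lay above the floor on all 4 arrays, and the higher floor of 5.17 removed none of them. The 3 floor alternatives could therefore not change any result and are no check of it. Averaging could change only Top2a, the 1 gene with more than 1 probe set. Counting from 1.5-fold gave 1 gene lower (Plk1) and 1 gene higher (Cenpe) in stimulated miR-155 cells, against 0 and 0 from 2-fold, by the construction of that alternative. The median log2 differences ranged over −0.12 to −0.06 for stimulation in miR-155 cells, −2.21 to −2.13 in control cells, 0.06 to 0.08 between vectors before stimulation, 2.24 to 2.26 after it and 2.03 to 2.09 for the difference of responses. No paired analysis was possible because each group has 1 array. Leaving out an array removes a group, so the weight of the stimulated control array could not be measured. Signal near the floor limits genes such as Ttk and Cenpe, whose stimulated control values were 4.72 and 4.83.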
